A study of Mus musculus with 9 samples.

Results

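The matrix metalloproteinases (Mmp), the Adamts proteases and the tissue inhibitors of metalloproteinases (Timp) were examined in 2 sorted fractions of mouse prostate cells. Members were taken by name alone: every probe whose gene name was Mmp or Adamts followed by a number, or Timp1 to Timp4. The arrays held 73 such probes for 42 genes, of 41174 probes and 27670 genes in all, and they stood for 21 Mmp genes, 17 Adamts genes and 4 Timp genes. Each gene was represented by its brightest tested probe, or by its brightest probe where none was tested. Cells came from prostates of BL6 mice and were separated by fluorescence-activated sorting with surface antibodies. The marker-positive fraction, called stem cells in the labels, lacked lineage markers and carried CD44, CD133, Sca-1 and CD117 (3 arrays). The marker-negative fraction was negative both for lineage markers and for those 4 surface proteins (6 arrays). No treatment or engineered allele was named for either group, and the labels used here state no age for the mice.

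Mmps are zinc-dependent endopeptidases that cleave collagens, other matrix proteins and many secreted or surface proteins. Most are made as inactive proenzymes and are switched on by removal of the propeptide, by plasmin, furin-like convertases or other Mmps. Adamts proteases are secreted relatives whose thrombospondin repeats bind them to matrix, and they cleave proteoglycans such as versican and aggrecan, trim procollagens or act on von Willebrand factor. Timps bind the active site of these enzymes and block it, with Timp3 also held in the matrix and able to inhibit Adamts enzymes. In the prostate, such proteases are known for remodelling the basement membrane and stroma during ductal growth, regression after androgen loss and tumour invasion.

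Values are log2 ratios of the sample (Cy5) over a common reference made of pooled mouse RNA (Cy3), so a value of 0 means a normalized signal equal to the reference. Genes near background in both channels, such as Mmp20 and Adamts13, also read near 0, which then says nothing about expression. Ratios of different genes share no scale and are compared only between arrays. The share of all probes with Cy5 signal well above background was 67.3% and 69.3% on marker-positive 1 and 2 but 45.5% on marker-positive 3, and it ranged from 47.5% to 69.5% across the marker-negative group. Replicate numbers follow the order of deposit. Whether each array stands for its own mice is not stated in the labels. The p-values therefore cover array-to-array spread, possibly technical, and 3 against 6 arrays limit the precision. The arrays lay on 5 slides: slide 1 held marker-positive 1 and marker-negative 1, slide 2 held marker-positive 2 with marker-negative 2 and 4, and marker-positive 3 was alone on its slide. In bulk RNA of sorted cells, fewer cells of a type and less RNA per cell cannot be told apart.

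Of the 42 genes, 12 had Cy5 signal well above background on all 9 arrays and 3 (Mmp20, Adamts13 and Adamts6) on none. Mmp20 makes enamelysin of developing teeth, and Adamts13 cleaves von Willebrand factor. Testing required detection on at least 3 arrays, which 35 members met. The untested genes were Mmp8, Mmp3, Mmp20, Adamts13, Adamts6, Adamts16 and Adamts19, each detected on at most 2 arrays. Mmp16 met this only through its marker-positive arrays, so its difference is tied to the filter. Mmp9 was detected on 3 marker-positive arrays and 1 marker-negative array. It too needed its marker-positive arrays to be tested, so its difference is also tied to the filter. Of the 73 member probes, 57, 54 and 23 were detected on marker-positive replicates 1 to 3 and 27 to 43 on a marker-negative array, so marker-positive 3 had the fewest of all 9.

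**Figure D1:**
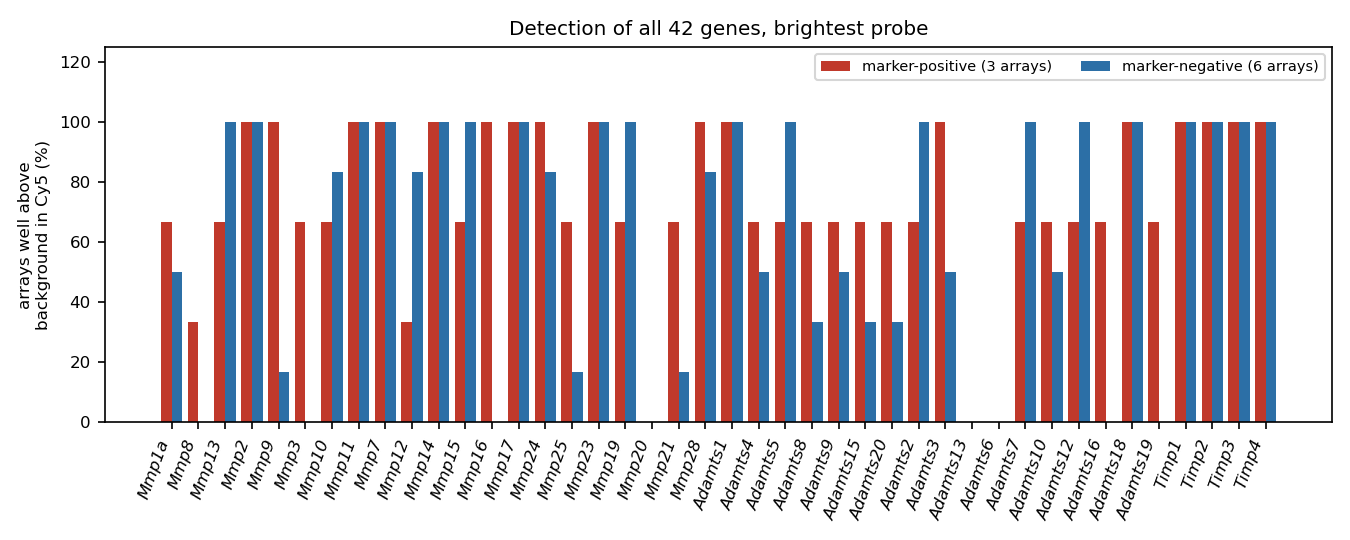
Percent of a group's arrays on which each of the 42 genes had Cy5 signal well above background (red bars: 3 marker-positive arrays, blue bars: 6 marker-negative arrays). The probe is the brightest tested probe of the gene, or its brightest probe where none was tested. 12 genes reach full height in both groups, and Mmp20, Adamts13 and Adamts6 have no bar.

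A single member passed the test between fractions. Mmp9 was higher in the marker-positive fraction, 0 were lower and 34 did not pass (limma, Benjamini-Hochberg adjusted p below 0.05 over all tested probes). Over all 19851 tested genes, 3.24% were called, 1.57% as higher and 1.67% as lower. At an unadjusted p below 0.05, 13 members were higher and 3 lower, beside 9.73% and 9.83% of all genes. Of the 35 tested members, 26 had a positive difference, against 48.9% of all genes, and the median difference was 0.39 log2 units, against -0.01 over all genes. Positive differences were found in 10 of 18 tested Mmps (median 0.08), 13 of 13 tested Adamts genes (median 1.53) and 3 of 4 Timps (median 1.24), and only Mmp9 among them passed. The groups did not overlap for 2 members on the higher side (Mmp9 and Mmp16) and 1 on the lower side (Mmp7), where 5.15% and 6.47% of all genes did so.

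**Figure D2:**
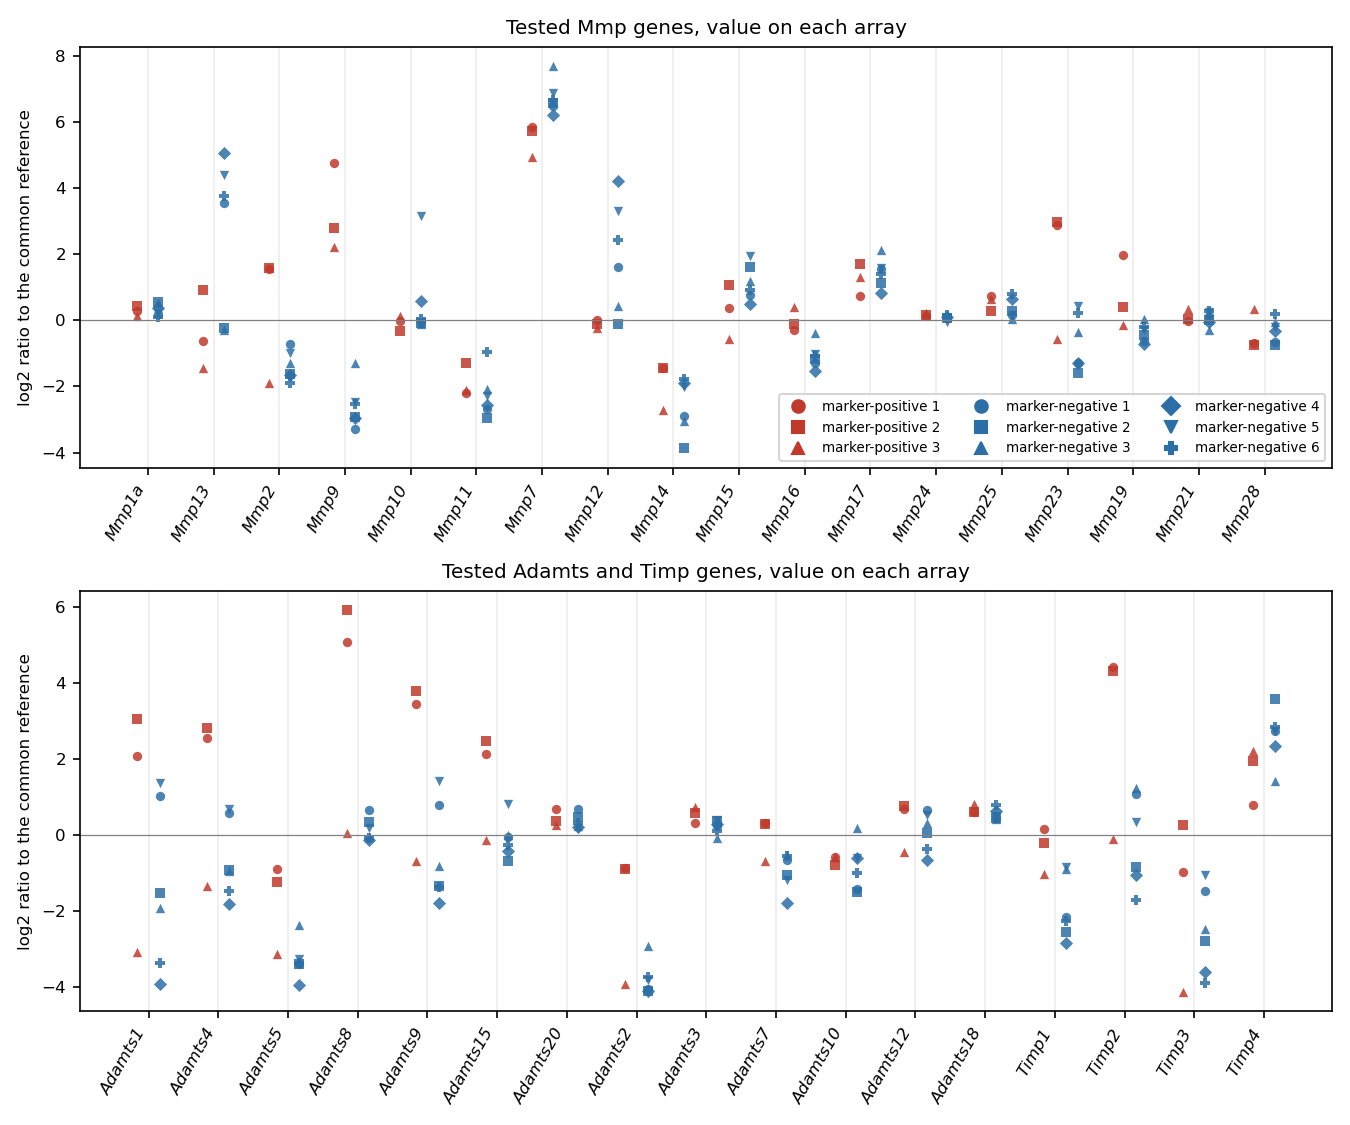
Log2 ratio of sample over reference (vertical axis) on each of the 9 arrays for the 35 tested members, Mmp genes in the upper panel and Adamts and Timp genes in the lower. Each point is an array (red: marker-positive, blue: marker-negative, symbol: replicate); the red triangle of marker-positive 3 lies among the blue points for many Adamts and Timp genes, and all 3 red points lie above all blue points for Mmp9.

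**Figure D3:**
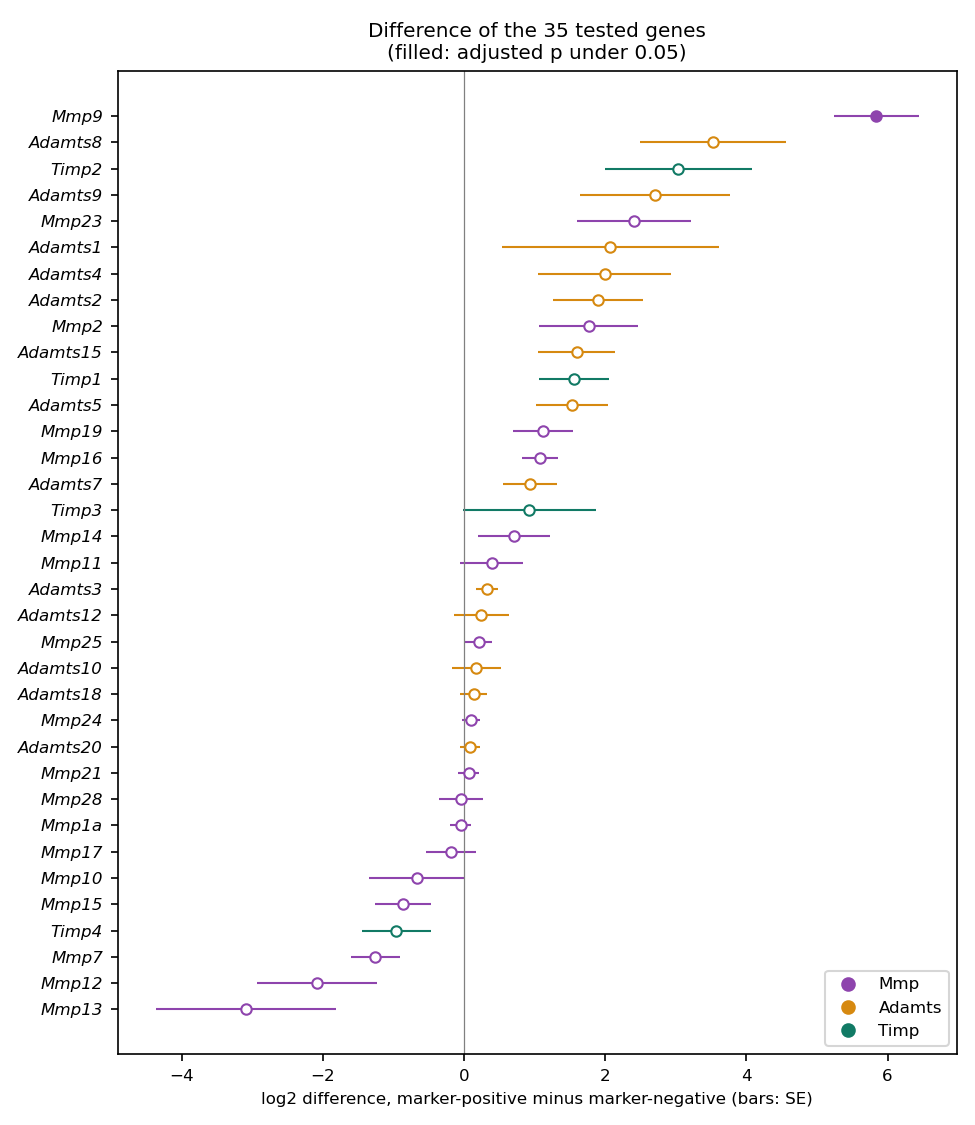
Difference in log2 ratio, marker-positive minus marker-negative, for the 35 tested members in order of size, with bars of 1 SE and colours for the 3 families. Mmp9 at 5.84 is the only filled point (adjusted p below 0.05), and all 13 Adamts points lie above 0.

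The gelatinases Mmp9 and Mmp2 degrade denatured collagen and basement membrane collagen. Mmp9, gelatinase B, read 4.77 on marker-positive 1, 2.80 on marker-positive 2 and 2.23 on marker-positive 3. Over the marker-negative arrays it ran from -3.30 to -1.29 with a median of -2.73, and it was well above background on 1 of the 6. Every marker-positive array lay above every marker-negative array. Mmp9 averaged 3.26 ± 1.33 (SD, n = 3) in the marker-positive group and -2.58 ± 0.70 (SD, n = 6) in the other, a difference of 5.84 log2 units (SE 0.60, limma adjusted p = 0.00168). The corresponding 57.3-fold ratio is set against signal that was not well above background on 5 of the 6 marker-negative arrays. The probe met the detection filter only with the help of its marker-positive arrays, so its test is tied to the filter. Mmp9 also passed when no detection filter was used. Within slides 1 and 2 the difference was 8.07 and 5.74. This probe lies on chromosome 2 at 164695457 to 164695516 in build mm7, per the scanner files, and exons of that build were not used here. A second Mmp9 probe at 164695774 to 164695833, spotted 10 times per array, read 1.69, 0.07 and -0.54 on the marker-positive arrays and -3.26 to -1.02 (median -2.52) on the others. Its groups did not overlap, and its difference was smaller, at 2.80 (SE 0.61, limma adjusted p = 0.0397). No marker-negative array had this probe well above background, and set against the background level there it was at least 5.93-fold higher. It met the detection filter only through its marker-positive arrays, so its test is tied to the filter and adds no independent support. For such bounds the marker-negative level was taken, on each array, as the higher of the probe's own signal and the lowest signal of a probe well above background. Mmp2, gelatinase A, was detected on all 9 arrays. Mmp2 read 1.54, 1.57 and -1.90 on the marker-positive arrays in replicate order, and -1.89 to -0.72 with a median of -1.46 on the rest. Replicates 1 and 2 were above all marker-negative arrays and replicate 3 was below them all. The difference was 1.77 (SE 0.70, limma adjusted p = 0.203).

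Macrophages and neutrophils are known to make Mmp9, and markers of myeloid cells were read beside it. Of 8 macrophage markers, 3 passed as higher and 0 as lower: Mrc1, Cd163 and Lyz2. No marker-negative array had Cd163 or Mrc1 well above background, so these 2 were tested only through the marker-positive arrays and their calls are tied to the filter. Mertk had a negative difference (-0.40) and did not pass. The mean log2 ratio of these 8 genes was 4.22, 3.02 and 3.57 in the marker-positive group and -0.69 to 1.72 in the other. Of 7 mast cell markers, 3 passed as higher (Cpa3, Fcer1a and Tpsb2), with list means of 4.26, 3.78 and 4.03 against 0.20 to 3.02. The 3.02 was that of marker-negative 3, and the next highest was 0.91. Of 10 neutrophil markers, 6 were tested and 1 passed (Csf3r, higher by 1.58). Csf3r was well above background on 3 marker-positive arrays and 1 marker-negative array, so its call is also tied to the filter. Its reference signal was well above background on no array, so the ratio rests on a dim Cy3 channel. The neutrophil list means were 2.07, 0.53 and 0.62, inside the marker-negative range of -0.32 to 2.40. The 2.40 was that of marker-negative 3 alone, and all 3 marker-positive arrays lay above the next highest, at 0.34. The granule genes Ngp and Elane and the receptor Cxcr2 were detected on no array, and Camp on 1. The part of these cell types in the Mmp9 result was not tested.

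**Figure D4:**
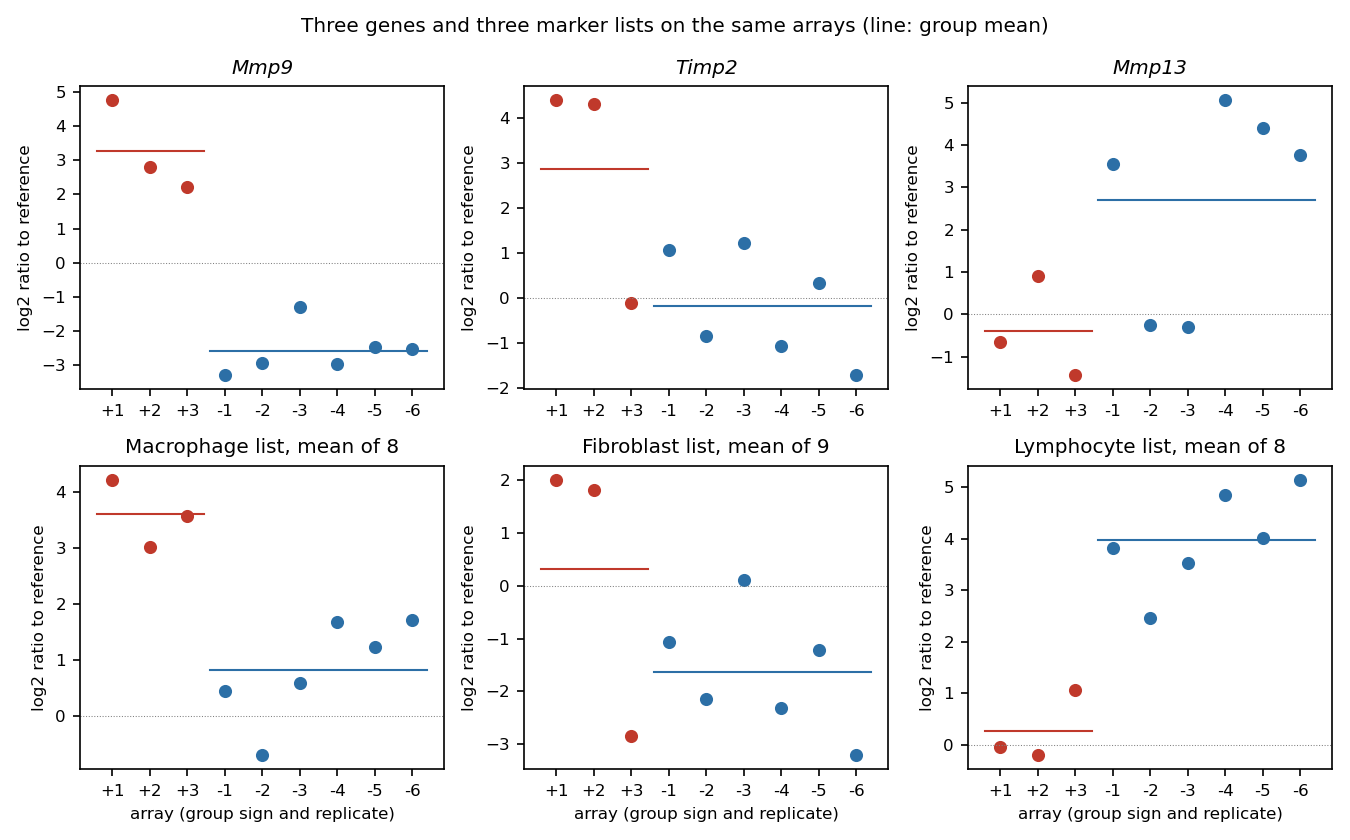
Log2 ratio of Mmp9, Timp2 and Mmp13 on each array (upper panels) and the mean log2 ratio of macrophage, fibroblast and lymphocyte markers (lower panels), with lines at the group means (red: marker-positive, blue: marker-negative). Mmp9 and the macrophage list are high on all 3 marker-positive arrays, whereas Timp2 and the fibroblast list are high on replicates 1 and 2 and not on replicate 3.

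A run of 8 Mmp genes lies together on chromosome 9, with probes spanning 415 kb from 7280046 to 7695493 in build mm7, in the order Mmp13, Mmp12, Mmp3, Mmp1a, Mmp10, Mmp8, Mmp20 and Mmp7. Upstream sequence is shown because these neighbours read differently from each other on the arrays while several share a motif close to their start. The windows are the 100 bases before each RefSeq start in build GRCm38.p6, all on the plus strand, with TGAGTCA or its reverse complement TGACTCA in capitals. These letters are the classical AP-1 site, bound by Fos and Jun proteins. The regions are chr9:7272414-7272513 for Mmp13, chr9:7347274-7347373 for Mmp12, chr9:7445722-7445821 for Mmp3, chr9:7464041-7464140 for Mmp1a, chr9:7502242-7502341 for Mmp10 and chr9:7691990-7692089 for Mmp7.
Mmp13: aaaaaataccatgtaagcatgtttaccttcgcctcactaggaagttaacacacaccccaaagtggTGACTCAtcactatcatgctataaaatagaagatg
Mmp12: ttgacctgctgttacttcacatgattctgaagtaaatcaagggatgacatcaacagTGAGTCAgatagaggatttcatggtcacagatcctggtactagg
Mmp3: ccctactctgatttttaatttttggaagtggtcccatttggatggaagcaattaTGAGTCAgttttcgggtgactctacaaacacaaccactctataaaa
Mmp1a: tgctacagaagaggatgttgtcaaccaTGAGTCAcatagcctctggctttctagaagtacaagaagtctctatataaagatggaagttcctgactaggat
Mmp10: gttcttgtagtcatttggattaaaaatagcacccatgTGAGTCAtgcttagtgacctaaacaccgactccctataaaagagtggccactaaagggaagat
Mmp7: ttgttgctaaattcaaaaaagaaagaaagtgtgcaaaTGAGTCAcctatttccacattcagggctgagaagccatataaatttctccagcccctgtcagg

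RefSeq windows of 250 bases before to 50 after the start were at hand for 28 of the 42 members. In these windows, searched on both strands, TGAGTCA or TGACTCA stood in 6 of the 8 cluster genes and 0 of the other 20 members, and in 5.2% of 32851 windows of all genes. The match lay 35 bases before the start in Mmp13, 44 in Mmp12, 46 in Mmp3, 73 in Mmp1a and 63 in Mmp10 and Mmp7. TATAAA, the TATA box letters, stood in 8 of the 8 cluster genes, 2 of the other 20 members (Adamts1 and Mmp21) and 13.6% of all windows. Any position in the window counted. A match lay 28, 29 and 26 bases before the start in Mmp1a, Mmp10 and Mmp7, 16 in Mmp13, 7 in Mmp3 and 58 in Mmp20. The Mmp12 match lay past the start, and that of Mmp8 was on the other strand, 3 bases before the start. A match describes letters only, and no binding was measured here.

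The cluster genes gave several patterns over the arrays. Mmp7, matrilysin, a small Mmp of glandular epithelium, read 5.83, 5.72 and 4.93 on the marker-positive arrays and 6.21 to 7.68 (median 6.62) on the marker-negative arrays. All 3 marker-positive arrays lay below all 6 others. The difference was -1.26 (SE 0.35, limma adjusted p = 0.0835), and it was -0.65 within slide 1 and -0.67 within slide 2. Prostate secretory genes were lower in the marker-positive fraction: 3 of 5 tested passed (Msmb, Pbsn and Azgp1), with list means of 5.55, 5.80 and 4.0 against 7.20 to 8.31. Their part in the Mmp7 values was not tested.

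Mmp13, collagenase 3, read -0.64, 0.92 and -1.44 on the marker-positive arrays. On marker-negative replicates 1, 4, 5 and 6 it read 3.55, 5.06, 4.39 and 3.75, and on replicates 2 and 3 it read -0.24 and -0.29. The marker-negative arrays were thus uneven, and the lower of them overlapped the marker-positive range (difference -3.09, SE 1.27, limma adjusted p = 0.218). Mmp12, the macrophage elastase, read 0.02, -0.12 and -0.22 on the marker-positive arrays, where it was well above background on 1 of 3. On the marker-negative arrays Mmp12 ran from -0.10 to 4.20 with a median of 2.02. Its 4 highest arrays were the same 4 as for Mmp13 (difference -2.09, SE 0.85, limma adjusted p = 0.215). Lymphocyte markers were lower in the marker-positive fraction in 6 of 8 (Cd3d, Cd3g, Cd8a, Klrb1c, Gzma and Gzmb), with list means of -0.03, -0.20 and 1.06 against 2.46 to 5.15, and Cd8a, detected on no marker-positive array, was tested only through the marker-negative group. The macrophage list means, given above, lay above the marker-negative range on all 3 marker-positive arrays. Of that list, Mrc1, Cd163 and Lyz2 did not overlap between groups, and Cd68, Adgre1, Csf1r, Fcgr1 and Mertk did. Adgre1 read 0.95 to 3.25 on marker-negative replicates 1, 4, 5 and 6, and -1.59 and 0.33 on replicates 2 and 3. Csf1r had its 4 highest marker-negative arrays there too, and no other gene of the list did. The lymphocyte list means were also highest on those 4 arrays. The part of either cell type in the Mmp12 and Mmp13 values was not tested.

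Mmp10, stromelysin 2, stayed between -0.33 and 0.12 on the marker-positive arrays and between -0.11 and 0.58 on 5 marker-negative arrays, while marker-negative 5 read 3.16 (difference -0.67, SE 0.67, limma adjusted p = 0.643). Mmp1a, an interstitial collagenase, read 0.14 to 0.43 and 0.09 to 0.56 in the marker-positive and marker-negative groups (difference -0.05, SE 0.15, limma adjusted p = 0.903). Mmp3 and Mmp8 were detected on 2 and 1 marker-positive arrays and on no marker-negative array, too few to test.

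**Figure D5:**
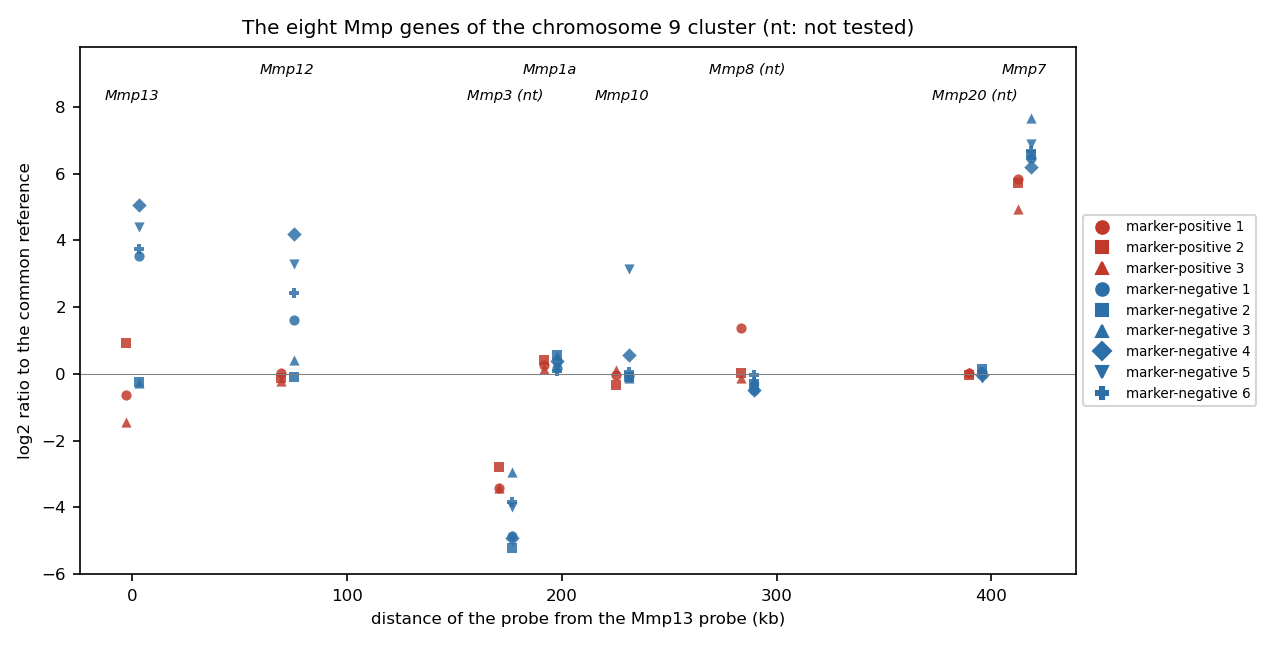
Log2 ratio on each array (vertical axis; red: marker-positive, blue: marker-negative, symbol: replicate) for the 8 Mmp genes of the cluster, against the distance of each probe from the Mmp13 probe in kb. Mmp13 and Mmp12 are high on marker-negative replicates 1, 4, 5 and 6, Mmp10 is high on marker-negative 5 alone, and Mmp7 is high on all 9 arrays.

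The membrane-bound Mmps act at the cell surface, where Mmp14 (MT1-MMP) can activate proMmp2. None of the 7 tested passed, at an unadjusted p below 0.05 in 2 of them, and their median difference was 0.21. Over all genes, 9.73% were higher and 9.83% lower at that unadjusted level. Mmp16 (MT3-MMP) read -0.31, -0.12 and 0.41 on the marker-positive arrays and -1.54 to -0.40 (median -1.13) on the marker-negative arrays, with no overlap. It was well above background on all 3 marker-positive arrays and on none of the 6 others. The difference was 1.08 (SE 0.26, limma adjusted p = 0.0517), at least 1.91-fold against background, just outside the threshold. These values are those of 1 probe. The other Mmp16 probe was well above background on no array and was not tested. It read -0.05, 0.02 and 0.31 against -0.06 to 0.16, with overlapping groups. Mmp23, an Mmp held in the membrane as a proenzyme, read 2.87, 2.96 and -0.55 in the marker-positive group and -1.60 to 0.45 (median -0.82) on the others, so that replicate 3 lay among the marker-negative arrays. Its difference was 2.40 (SE 0.81, limma adjusted p = 0.140). Mmp15 (MT2-MMP) overlapped between groups, at -0.56 to 1.05 against 0.48 to 1.96 (difference -0.86, SE 0.40, limma adjusted p = 0.267). The tested probes of Mmp17 (MT4-MMP) disagreed in sign, at -0.18 and 0.25.

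Among Adamts genes, the proteoglycan-cleaving class had the largest median difference. All 7 of its tested members had positive differences, with a median of 1.99, where 48.9% of all genes had a positive difference. None passed, while 4 had an unadjusted p below 0.05, where 9.73% of all genes were higher at that level. Adamts8 read 5.08, 5.92 and 0.05 in the marker-positive group, against -0.14 to 0.65 (median 0.07). Replicates 1 and 2 were far above every other array and replicate 3 lay among the marker-negative values (difference 3.53, SE 1.03, limma adjusted p = 0.0985). Its reference signal was well above background on only 2 arrays, so the ratio rests on a dim Cy3 channel. Adamts9, a versican-cleaving enzyme, read 3.45, 3.78 and -0.67 against -1.80 to 1.41 (median -1.09), a difference of 2.71 (SE 1.06, limma adjusted p = 0.195), with 1.51 and 1.61 at its other probes. Adamts1, which cleaves versican and aggrecan, varied as much within groups as between them: 2.08, 3.04 and -3.06 against -3.93 to 1.36 (median -1.71), a difference of 2.07 (SE 1.54, limma adjusted p = 0.508). Its other probe read -1.51, -0.13 and -0.69 against -2.20 to 1.56, with all 3 inside the marker-negative range and a difference of 0.39 (limma adjusted p = 0.832). Adamts4, aggrecanase 1, read 2.56, 2.81 and -1.33 against -1.81 to 0.69 (median -0.94), a difference of 1.99 (SE 0.94, limma adjusted p = 0.278). At the brightest probe of all 4 genes, replicates 1 and 2 were above the marker-negative range and replicate 3 was inside it.

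Adamts2 removes the N-propeptide of fibrillar procollagens. It read -0.87, -0.89 and -3.91 against -4.10 to -2.93 (median -3.93), the same arrangement of replicates, with a difference of 1.89 (SE 0.64, limma adjusted p = 0.141). Its 4 probes gave 0.08 to 2.10. In the remaining Adamts class, with 4 of 8 genes tested, the median difference was 0.21. The probes of Adamts10, which acts on fibrillin microfibrils, disagreed in sign (0.18 and -0.37), as did those of Adamts12 (0.25, 0.12 and -0.20). Adamts genes were also paired along the genome, Adamts8 with Adamts15 within 62 kb on chromosome 9 and Adamts1 with Adamts5 within 68 kb on chromosome 16, by probe positions in build mm7. Adamts15 and Adamts5, named here for their position after their values were seen, had differences of 1.60 and 1.53 and adjusted p-values of 0.145 and 0.140 (limma).

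Of the 4 Timps, none passed by the brightest probe, while 2 were higher at an unadjusted p below 0.05, where 9.73% of all genes were. Timp1, an inducible inhibitor, read 0.15, -0.20 and -1.03 on the marker-positive arrays and -2.84 to -0.85 (median -2.20) on the others, a difference of 1.56 (SE 0.50, limma adjusted p = 0.120). Only replicate 3 overlapped the marker-negative range. Its other probes did pass, with differences of 1.45 (SE 0.29, limma adjusted p = 0.0298) and 2.10 (SE 0.33, limma adjusted p = 0.00986), and at both the groups did not overlap. All 3 probes gave a positive difference, and the call of Timp1 depended on the probe taken. Timp2, which also takes part in proMmp2 activation by Mmp14, read 4.41, 4.32 and -0.11 against -1.71 to 1.23 (median -0.24). Replicates 1 and 2 stood well above all marker-negative arrays and replicate 3 inside them (difference 3.03, SE 1.04, limma adjusted p = 0.147; 3.33 and 5.27 within slides 1 and 2). Timp3 read -0.96, 0.27 and -4.13 against -3.88 to -1.04 (median -2.62), a difference of 0.93 (SE 0.94, limma adjusted p = 0.646), with replicate 3 the lowest of all arrays. Timp4 had the opposite sign, at 0.78, 1.96 and 2.21 against 1.43 to 3.57 (median 2.73), a difference of -0.96 (SE 0.49, limma adjusted p = 0.320) with overlapping groups.

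The same array set many of these members apart. Marker-positive replicates 1 and 2 were both above all 6 marker-negative arrays in 18 of 35 tested members, where 13.6% of all genes were, and both below them in 1, where 18% of all genes were. This count was chosen after the data were seen. Of those 18, replicate 3 was also above in 2 (Mmp9 and Mmp16), inside the marker-negative range in 14 and below it in 2 (Mmp2 and Timp3). Over the 35 members, replicates 1 and 2 correlated at r = 0.93, replicate 3 with them at 0.51 and 0.42, and replicate 3 with the marker-negative arrays at 0.56 to 0.83. Over all tested probes, replicate 3 correlated with replicates 1 and 2 at 0.61 and 0.58 and with the marker-negative arrays at 0.48 to 0.68. Replicates 1 and 2 correlated with the marker-negative arrays at 0.52 to 0.73 over the same probes, so replicate 3 was no closer to them there. These arrays share the reference channel, and the values describe genes, which are not replicates. With replicate 3 left out of the fit, 10 members passed as higher and 0 as lower: Adamts2, Adamts4, Adamts5, Adamts8, Adamts9, Adamts15, Mmp2, Mmp9, Mmp23 and Timp2. In that fit 4.71% of all genes were called higher and 2.49% lower. With slide as a fixed block, 5 members passed as higher (Adamts15, Adamts2, Adamts8, Mmp23 and Mmp9), where 0.645% of all genes did and 0.101% passed as lower. Only slides 1 and 2 held both groups, so marker-positive 3 and marker-negative 3, 5 and 6 add nothing to that group difference. With array weights 14 members passed as higher and 2 as lower, beside 11.1% and 11.4% of all genes, and marker-positive 3 had a weight of 0.243. All 3 of these fits drop or reduce the same array, so they are not independent of each other. On the Cy5 channel alone Mmp9 and Mmp16 passed as higher and Mmp7 as lower, beside 1.4% and 1.53% of all genes.

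Fibroblast markers followed the same arrangement. None of 9 passed and 3 had an unadjusted p below 0.05; all 9 differences were positive (median 1.87). Their list means were 2.0 and 1.80 on replicates 1 and 2, -2.84 on replicate 3 and -3.20 to 0.10 on the marker-negative arrays. Of 8 endothelial markers 1 passed (Vwf) and 5 were higher at an unadjusted p below 0.05. Their differences were positive in 7 (median 2.11), with list means of 3.42, 4.88 and 0.83 against 0.57 to 2.20. Of 6 smooth muscle markers none passed, 1 at an unadjusted p below 0.05, with list means of -0.37, 0.39 and -1.57 against -2.14 to -0.24. Of 8 epithelial markers 1 passed, the basal gene Trp63 as higher, while 6 had negative differences and the list median was -1.06. At an unadjusted p below 0.05, 2 of the 8 were higher and 2 lower, the latter being Epcam (-1.95) and Krt18 (-1.88). The epithelial list means were 2.04, 2.05 and -0.73 against 0.98 to 2.26. The part of these cell types in the Adamts and Timp values was not tested.

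Partner genes of the proteases were read from lists of activators, inhibitors, relatives and substrates. For all these lists the shares over all genes were 1.57% called higher and 1.67% called lower. At an unadjusted p below 0.05 they were 9.73% higher and 9.83% lower. Of 16 tested activators and cell surface partners, 2 passed as higher and 0 as lower, and 7 were higher and 2 lower at an unadjusted p below 0.05. Cd44, a hyaluronan receptor that docks Mmp9 and was itself a sort marker, had a difference of 2.06 (SE 0.36, limma adjusted p = 0.0167). Lrp1, an endocytic receptor that clears Mmps and Timps, read -0.09, -0.34 and -1.93 against -3.53 to -2.28, a difference of 1.90 (SE 0.43, limma adjusted p = 0.0466). Mcpt4, a mast cell chymase, came next at 3.41 (SE 0.92, limma adjusted p = 0.0775).

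Of 8 tested inhibitors other than Timps none passed, while 3 were higher at an unadjusted p below 0.05. Reck, a membrane-anchored Mmp inhibitor, read 1.36, 1.63 and -1.14 against -2.42 to -0.45, with replicate 3 inside the marker-negative range (difference 2.09, SE 0.65, limma adjusted p = 0.114). Thbs1 and Serpinb2 had differences of 2.68 and 1.76 with adjusted p-values of 0.136 and 0.139 (limma).

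Of 11 tested Adam relatives, which include membrane-anchored sheddases, 1 passed as higher. Adam8, a sheddase of leukocytes, read 1.05, -0.33 and 0.36 against -4.31 to -1.43, a difference of 3.34 (SE 0.59, limma adjusted p = 0.0172). Adam15 and Adam33 did not pass (1.44 and -1.69, adjusted p = 0.0849 and 0.167 by limma). Adamts-like genes encode matrix proteins without protease activity, and 2 of 6 passed as higher. They were Adamtsl4, a fibrillin-binding protein (1.72, SE 0.32, limma adjusted p = 0.0207), and Papln, papilin, which no marker-negative array had well above background (at least 1.51-fold, limma adjusted p = 0.00885). Papln entered the test only through its marker-positive arrays, so its call is tied to the filter. Adamtsl2 did not pass (0.78, SE 0.23, limma adjusted p = 0.106).

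Of 19 tested matrix substrates, 17 had positive differences (median 1.25), where 48.9% of all genes did, and 1 passed. Vwf, the substrate of Adamts13, read 3.52, 4.87 and 3.56 against -1.24 to 1.17, a difference of 3.99 (SE 0.60, limma adjusted p = 0.00843), whereas Adamts13 was detected on no array. Fbn1, fibrillin of microfibrils, read 1.90, 0.75 and -1.88 against -3.90 to -1.10 (difference 3.11, SE 0.82, limma adjusted p = 0.0748), and Col4a2 of basement membrane had a difference of 1.38 (limma adjusted p = 0.173).

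The authors' deposited table gave adjusted p-values below 0.05 to 16 of its 82 member entries, beside 5.58% of all its 43379 entries. Of those 16, 10 were repeat spots of the second Mmp9 probe, and together they stood for 7 of the 73 member probes and 6 of the 42 genes. In the authors' deposited table the fold for stem over non-stem cells was 57.1 for Mmp9 (adjusted p = 0.000729), 7.83 for Timp2 (adjusted p = 0.0202) and 6.54 for Adamts9 (adjusted p = 0.0443). The authors' deposited table listed 3.35 for Mmp2 (adjusted p = 0.0383), 2.13 for Mmp16 (adjusted p = 0.0480) and 4.31 for a Timp1 probe (adjusted p = 0.0209). Its log2 column had the opposite sign to its fold column in all 43379 entries, and the fold column was used here. Both analyses used the same arrays, so the calls shared between them are not independent.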

How the data were processed

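Per the labels' protocols, RNA of sorted cells was extracted (PicoPure), amplified (MessageAmp II) and labelled with Cy5. Universal mouse reference RNA carried Cy3 on all 9 arrays, with no dye swap. The deposited scanner files hold mean and background intensity values from the scanner software Agilent Feature Extraction, version 10.7 in the submitters' processing notes and 10.7.3.1 per the file headers. The authors' deposited table holds log2 differences, p-values, limma scores and folds (a signed ratio); the sources used here do not give its normalization.

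The background was removed by normexp (limma 3.58.1, R 4.3.3; offset 50), followed by loess on every array in which control and outlier spots had weight 0. Outlier spots were dropped as missing and replicate spots averaged. Probes needed Cy5 signal well above background on 3 or more arrays, which 28334 of 41174 met. They were tested, two-sided, by limma's moderated test with an intensity trend and robust variance. P-values were adjusted by Benjamini-Hochberg over these probes, with a threshold of 0.05. Genes took the brightest of their tested probes. A difference is the marker-positive minus the marker-negative mean log2 ratio. List means of markers are over their tested genes. The procedure was tested on simulated data.

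Members and lists were chosen with earlier results of these data known. Members named with values were those called, the 8 largest positive and 8 largest negative differences, all Timps, both gelatinases, members whose probes disagreed and members detected throughout one group and on no array of the other. From each partner list, called genes and the 3 smallest adjusted p-values were named. Promoter sequences are from RefSeq, build GRCm38.p6, and probe positions from the scanner files (mm7). Alternatives covered background correction, normalization, filters, slide, variance model, array weights, the probe rule and each array left out. Plots were drawn with matplotlib 3.10.9.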

Additional observations from a re-analysis of the deposited data

Results flagged for a closer look

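Among the 35 tested members, the 6 marker-negative arrays were checked for an array far from the others, and 2 genes had one, where chance gives about 1 in 20. Mmp10, stromelysin 2, read 3.16 on marker-negative 5, with the nearest other array at 0.58, and its gap was 0.789 of the range. Adamts2, the procollagen N-proteinase, read -2.93 on marker-negative 3, with the nearest at -3.72 and a gap of 0.676 of the range. Both exceed Dixon's critical value for 6 arrays.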

How the results depend on the processing

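Mmp9 passed in all 20 alternatives in which it was tested, with differences of 4.32 to 7.71 and adjusted p of 0.00019 to 0.0416 (limma), the highest with slide as a fixed block. It was not among the 14 members left when both channels had to be detected on all arrays, where 0 members passed. Members passing as higher numbered 2 (Mmp9 and Mmp16) with no background subtraction, an offset of 16, processed signals, median centring, Cy5 alone and slide as a random block. They numbered 2 (Mmp9 and Timp1) with the mean of a gene's probes, 5 with slide as a fixed block and 14 with array weights, which gave marker-positive 3 a weight of 0.243. Members passing as lower numbered 0, except 1 with Cy5 alone (Mmp7) and 2 with array weights (Mmp7 and Timp4). With each array left out, 1 to 10 members were higher, 10 without marker-positive 3, 2 without marker-negative 3 and 1 otherwise, and 0 lower. Members above all marker-negative arrays numbered 18 without marker-positive 3 against 2 with it.

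Over all genes, 312 were higher and 332 lower, against 141 and 85 with median centring, 128 and 20 with slide as a fixed block, 2203 and 2264 with array weights, and 101 to 934 and 88 to 495 with an array left out. Of all calls 48.4% were higher, against 62.4% with median centring, 37.8% with processed signals, 86.5% with slide as a fixed block and 65.4% without marker-positive 3. Some small differences changed sign, all with adjusted p of 0.87 or more (limma): Mmp1a at 0.017 (Cy5 alone), 0.011 (fixed block), 0.021 (array weights) and 0.023 (without marker-positive 3; -0.12 to 0.023 over arrays left out), Mmp17 at 0.074 (fixed block), 0.069 (without marker-positive 1; -0.41 to 0.069 over arrays left out) and 0.035 (mean of probes), Timp3 at -0.010 (without marker-positive 2; up to 2.19 with another array left out) and Adamts10 at -0.099 (mean of probes). The cause was not tested. No paired analysis was possible because the labels give no replicate numbers that pair arrays, and slide served as the block instead. With slide as a fixed block, the group difference rests on slides 1 and 2, which alone held both groups. Genes near background, such as Mmp16 on the marker-negative arrays, have only a bound there.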
